A study of Mus musculus with 10 samples.

Results

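RNA of 10 genes of the YAP and TEAD pathway was compared between pigmented and MPNST-like mouse melanomas. The genes are Yap1, Wwtr1, Tead1, Tead2, Ccn1, Ccn2, Ankrd1, Amotl2, Ptpn14 and Lats2. They were taken by name, with no measured value in the rule, though earlier results of these data were known when the list was made, and are 10 of the 19057 genes with a symbol on the array. All 22 probes carrying one of these symbols were taken. On the platform annotation Ccn1 (formerly Cyr61) and Ccn2 (formerly Ctgf) carry their current names.

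The tumors were excised from the skin of C57BL6 mice carrying BrafV600E and CDK4R24C. Tamoxifen put on the skin for 4 days in a row switched on the mutant Braf allele, and 1 dose of the carcinogen DMBA was then put on the skin, in both groups alike. The labels call 5 tumors pigmented and 5 MPNST-like (amelanotic, that is without pigment). MPNST is the usual short form of malignant peripheral nerve sheath tumor. The labels do not name the tamoxifen-responsive driver or the age of the mice, nor say that the tumors came from separate mice, so p-values measure the spread between these tumors. RNA from the frozen material of each tumor was hybridized to 1 single-colour bead array.

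YAP, encoded by Yap1, and its relative TAZ, encoded by Wwtr1, are coactivators that enter the nucleus and bind TEAD transcription factors to switch on genes such as Ccn1 and Ccn2. The Hippo kinases Lats1 and Lats2 phosphorylate both coactivators and keep them out of the nucleus, and several of the target genes, Lats2 and Amotl2 among them, act back on the pathway as inhibitors. The pathway responds to cell contact, matrix stiffness and tension. It is known to be active in fibroblasts, endothelium and Schwann cells and in dedifferentiated melanoma cells. RNA levels do not report where YAP and TAZ lie in the cell or whether they are phosphorylated.

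TEAD factors bind the letters CATTCC, or GGAATG on the other strand. Promoter windows of 300 bases, 250 before and 50 after the annotated start, were searched on both strands in RefSeq sequence of build GRCm38.p6. Windows were found for 8 of the 10 genes, Ccn2 and Tead1 being without an entry. At least 1 window of 7 of these 8 genes held the letters, Tead2 being the exception, against 14.7% of all 32851 windows and 16.6% of all 27025 genes. Counted from the annotated start, Ankrd1 held copies at -210 and -123, Ccn1 at -103, Amotl2 at -65, Ptpn14 at -146, Yap1 at -141 and Lats2 at 4. Wwtr1 and Lats2 each have more than 1 annotated start. For Wwtr1 the same letters lie at -170 or -136 from its starts, and the other Lats2 window held 0 copies. The AP-1 letters TGANTCA, which read alike on both strands and whose end can overlap the start of CATTCC, stood in 0 of the 8 genes and in 7.81% of all windows. A match describes these letters only and is no sign of binding. The list holds genes known as YAP targets, such as Ccn1 and Lats2, so a high share describes how it was made and tests nothing. The windows of a pair of genes whose RNA was higher in the MPNST-like tumors (Ccn1 and Wwtr1), a pair whose RNA was lower (Yap1 and Ptpn14) and the gene that split the MPNST-like tumors (Ankrd1) follow, 5′ to 3′ in the direction of transcription, with the letters in capitals.
Ccn1, chr3:145649936-145650235, minus strand: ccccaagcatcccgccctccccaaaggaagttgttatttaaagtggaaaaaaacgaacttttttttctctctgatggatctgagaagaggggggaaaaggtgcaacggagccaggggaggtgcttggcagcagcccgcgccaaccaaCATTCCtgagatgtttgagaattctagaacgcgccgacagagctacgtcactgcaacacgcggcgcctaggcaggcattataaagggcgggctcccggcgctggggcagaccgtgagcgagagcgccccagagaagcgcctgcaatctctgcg
Wwtr1, chr3:57575827-57576126, minus strand: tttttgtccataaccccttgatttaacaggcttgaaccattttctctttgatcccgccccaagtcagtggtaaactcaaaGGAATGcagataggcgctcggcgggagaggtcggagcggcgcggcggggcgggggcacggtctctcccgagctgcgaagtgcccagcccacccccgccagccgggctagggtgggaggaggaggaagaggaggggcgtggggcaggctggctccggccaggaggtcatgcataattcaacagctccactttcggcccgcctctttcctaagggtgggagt
Yap1, chr9:8004547-8004846, minus strand: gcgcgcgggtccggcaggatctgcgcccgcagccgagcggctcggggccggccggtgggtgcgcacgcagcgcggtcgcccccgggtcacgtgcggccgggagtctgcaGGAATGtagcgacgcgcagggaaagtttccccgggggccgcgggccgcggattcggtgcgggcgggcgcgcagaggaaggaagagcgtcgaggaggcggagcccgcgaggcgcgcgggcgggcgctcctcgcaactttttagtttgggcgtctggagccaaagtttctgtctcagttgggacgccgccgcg
Ptpn14, chr1:189728018-189728317, plus strand: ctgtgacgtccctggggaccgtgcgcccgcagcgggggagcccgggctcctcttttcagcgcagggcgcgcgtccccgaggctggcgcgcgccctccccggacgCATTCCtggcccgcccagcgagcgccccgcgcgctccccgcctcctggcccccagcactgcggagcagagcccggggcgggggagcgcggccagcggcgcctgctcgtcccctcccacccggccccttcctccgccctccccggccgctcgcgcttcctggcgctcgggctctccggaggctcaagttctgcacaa
Ankrd1, chr19:36119795-36120094, minus strand: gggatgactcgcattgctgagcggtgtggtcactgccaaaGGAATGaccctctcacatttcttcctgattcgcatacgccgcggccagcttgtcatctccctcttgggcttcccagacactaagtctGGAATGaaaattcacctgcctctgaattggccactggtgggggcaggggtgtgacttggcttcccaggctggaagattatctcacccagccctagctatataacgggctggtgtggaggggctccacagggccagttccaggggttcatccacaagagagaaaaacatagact
The letters thus stood in windows of genes that were higher and of genes that were lower.

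Levels are log2 intensities after background correction and quantile normalization, and differences are MPNST-like minus pigmented. A call is an adjusted p under 0.05 in limma's moderated test over 11984 genes, in which the brightest detected probe stands for each gene. A probe was kept when detected on at least 3 of the 10 arrays, which 19 of the 22 probes and 9 of the 10 genes were. Of the 9 genes, 4 rose (Ccn1, Ccn2, Wwtr1 and Tead1) and 2 fell (Ptpn14 and Yap1), where 18.6% of all genes tested rose and 20.2% fell, 38.8% in either direction. The groups did not overlap for 3 of the rising and both falling genes, against 12.1% of all genes without overlap in the higher and 13.8% in the lower direction. The median difference of the 9 genes was 1.15 and that of all genes 0.01. Over single probes, 8 of 19 rose and 4 fell, against 15.4% and 18.7% of all 22480 probes kept. In whole-tumor RNA, a change in the share of cells that express a gene and a change in RNA per cell cannot be told apart.

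**Figure D1:**
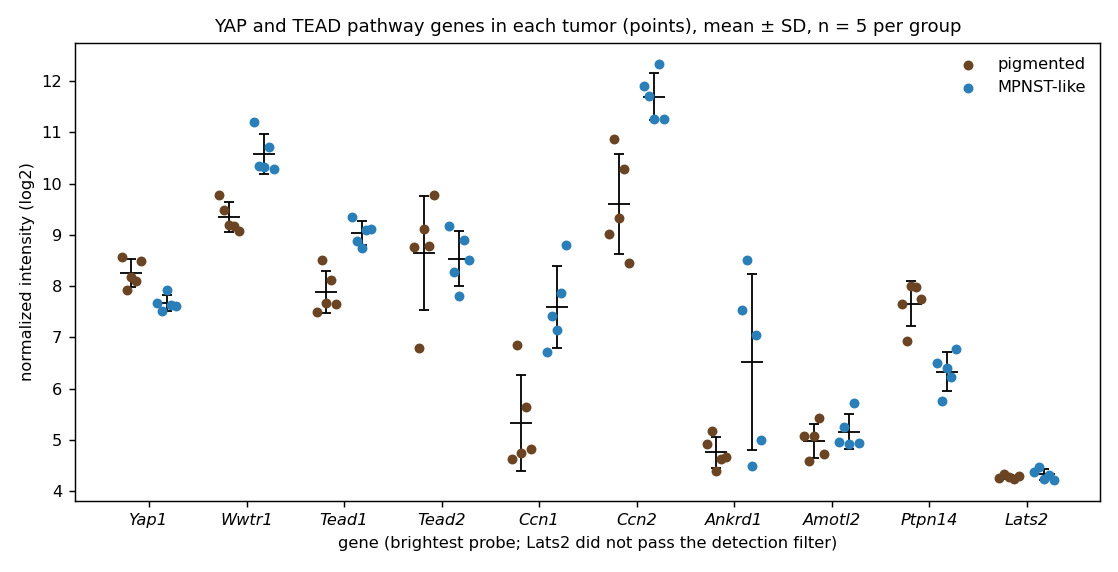
Normalized log2 intensity (vertical axis) of the 10 genes in each of the 5 pigmented and 5 MPNST-like tumors, as points, with the mean and SD of each group as black bars. Ccn2, Wwtr1 and Tead1 lay higher and Yap1 and Ptpn14 lower in every MPNST-like tumor than in any pigmented tumor, Ankrd1 split the MPNST-like tumors, and Lats2 stayed at background; levels of different genes are read with different probes and are not comparable.

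With the brightest probe standing for each coactivator gene, Wwtr1 rose and Yap1 fell, and both calls have limits given below. Yap1 was at 8.56, 7.93, 8.19, 8.11 and 8.50 in pigmented 1 to 5 and at 7.67, 7.51, 7.92, 7.63 and 7.61 in MPNST-like 1 to 5. The groups touched without overlapping, pigmented 2 and MPNST-like 3 being nearly level. The mean fell from 8.26 ± 0.27 to 7.67 ± 0.15 (SD, n = 5 each), a 1.5-fold decrease (log2 difference -0.59, SE 0.16, adjusted p = 0.013). This small fall depended on how the arrays were scaled: with arrays scaled to a common median the difference was -0.07 (adjusted p = 0.83), and the authors' values gave -1.02. It was -0.66 within chip 1 and -0.54 within chip 2 of the 2 chips that held the arrays, and neither passed alone. Its adjusted p was 0.090 without the 3 tumors high in muscle RNA.

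Wwtr1, read by its brightest probe ILMN_1219016, was at 9.79, 9.49, 9.20, 9.17 and 9.08 in pigmented 1 to 5 and at 11.20, 10.34, 10.33, 10.72 and 10.28 in MPNST-like 1 to 5. Every MPNST-like tumor lay above every pigmented one, and MPNST-like 1 was highest. The mean rose 2.35-fold, from 9.34 ± 0.29 to 10.57 ± 0.39 (log2 difference 1.23, SE 0.21, adjusted p = 0.0013). The other 2 probes of the gene, both dimmer, did not share this. ILMN_2732997 differed by 0.20 (SE 0.29, adjusted p = 0.64) and ILMN_2732998 by 0.07 (SE 0.28, adjusted p = 0.87). Both overlapped between the groups, and both were highest in MPNST-like 1, at 7.28 and 7.20. With the mean of its 3 probes the gene was at 0.50 and did not pass (adjusted p = 0.13). All 3 probes carry the same transcript in the platform annotation, and where each lies on it was not analysed here.

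The change of Wwtr1 relative to Yap1 was tested within each array, so that scaling of the array cancels in large part. It was one of 3 such pairs, with p-values adjusted over them. Read by the brightest Wwtr1 probe, the log2 difference of Wwtr1 and Yap1 shifted by 1.82 between the groups. The exact permutation p was 0.0079, the least possible with 252 assignments, and 0.024 after adjustment. By that probe the log2 difference was larger in each of the 5 MPNST-like tumors than in any pigmented tumor. The shift was 1.68 with median scaling, 1.60 by the authors' values and 1.09 with the mean of the Wwtr1 probes (adjusted p = 0.024 each). It was 1.79 within chip 1 and 1.84 within chip 2. With assignments kept within chips the exact permutation p was 0.017, the smallest that 120 such assignments allow, and 0.050 after adjustment over the 3 pairs. The mean of the Wwtr1 probes includes the brightest one. The dimmer probes, at 0.20 and 0.07 between the groups, were not tested singly against Yap1, itself at -0.59 and dependent on the scaling. The unequal change thus rests on the brightest probe, and the ratio does not show which gene moved.

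Of the transcription factor genes, Tead1 rose and Tead2 did not pass. TEAD1 and TEAD2 are related DNA-binding partners of YAP and TAZ. Tead1 was at 7.5, 8.50, 7.67, 8.11 and 7.65 in pigmented 1 to 5 and at 9.35, 8.88, 8.75, 9.09 and 9.11 in MPNST-like 1 to 5. The groups did not overlap, and pigmented 2 was the pigmented tumor nearest to the MPNST-like ones. The mean rose 2.22-fold, from 7.89 ± 0.41 to 9.04 ± 0.23 (log2 difference 1.15, SE 0.21, adjusted p = 0.0016). A second probe, ILMN_1218956, spanned 5.90 to 6.53 among the pigmented tumors and 6.69 to 7.66 among the others, again without overlap (0.86, SE 0.20, adjusted p = 0.0062). The third, ILMN_2607207, was detected on 0 of 10 arrays, with raw intensities of 74.0 to 87.5. Within chip 1 Tead1 differed by 1.12 and within chip 2 by 1.17.

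Tead2 was at 8.76, 6.79, 9.11, 8.79 and 9.77 in pigmented 1 to 5 and at 9.18, 8.28, 7.80, 8.90 and 8.50 in MPNST-like 1 to 5. The MPNST-like tumors lay within the range of the pigmented ones, and pigmented 2, high for Tead1, was the lowest of all for Tead2. The means were 8.64 ± 1.11 and 8.53 ± 0.54 (log2 difference -0.11, SE 0.48, adjusted p = 0.88). The sign followed the scaling, being 0.36 with median scaling and -0.63 by the authors' values. It also followed the chip, with 0.96 within chip 1, which held pigmented 2, and -0.82 within chip 2. The shift of Tead2 relative to Tead1 was -1.26 and did not pass (exact permutation p = 0.095, adjusted 0.14). Without pigmented 2 that shift was -1.88 (exact permutation, adjusted p = 0.012).

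**Figure D2:**
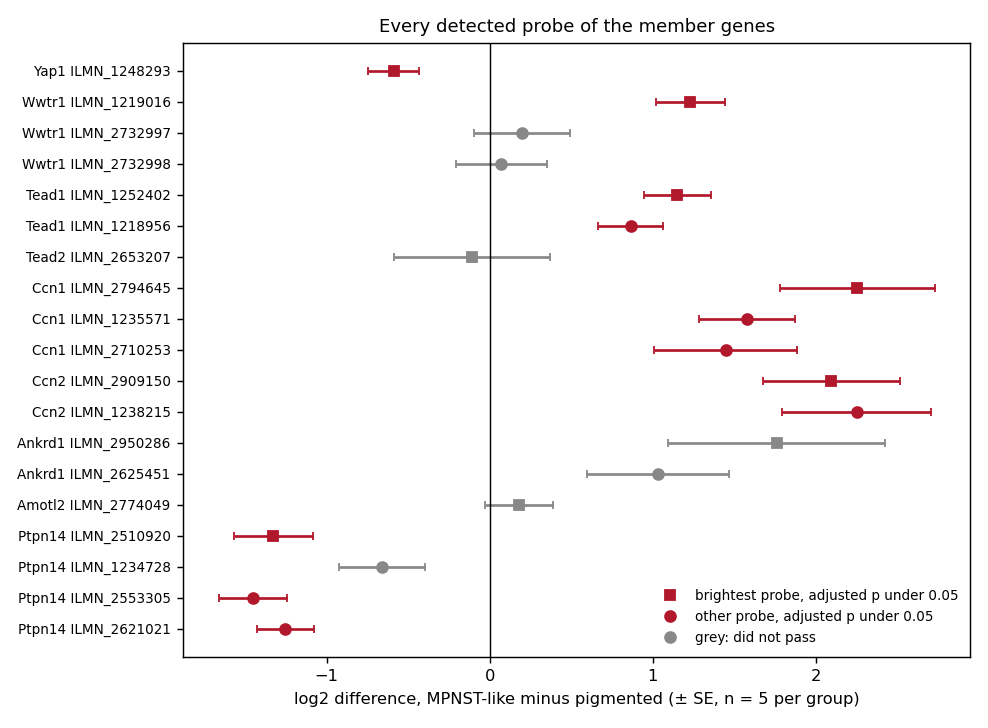
Log2 difference between MPNST-like and pigmented tumors (horizontal axis, ± SE, n = 5 per group) for the 19 probes kept, squares marking the brightest probe of each gene and red those with an adjusted p under 0.05 over all probes kept. All probes of Ccn1, Ccn2 and Tead1 lie to the right, the Ptpn14 probes lie to the left, and 1 of the 3 Wwtr1 probes stands apart from the other two.

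The target genes Ccn1 and Ccn2, which encode secreted matricellular proteins that act on adhesion and connective tissue growth, had the largest increases of the 9 genes. Ccn2 was at 9.02, 10.88, 9.33, 10.29 and 8.45 in pigmented 1 to 5 and at 11.90, 11.70, 11.25, 12.34 and 11.26 in MPNST-like 1 to 5. The MPNST-like tumors lay close together and all above the pigmented ones, of which pigmented 2 came nearest. The mean rose 4.28-fold, from 9.60 ± 0.98 to 11.69 ± 0.46 (log2 difference 2.10, SE 0.42, adjusted p = 0.0030). The second probe, ILMN_1238215, gave 2.25 (SE 0.46, adjusted p = 0.0032), also without overlap. The difference was 1.85 within chip 1 and 2.26 within chip 2, and 1.41 (adjusted p = 0.024) in the authors' values.

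Ccn1 was at 4.62, 6.86, 4.75, 5.63 and 4.82 in pigmented 1 to 5 and at 6.72, 7.42, 7.15, 7.86 and 8.81 in MPNST-like 1 to 5. Pigmented 2 lay above MPNST-like 1, and the groups did not overlap otherwise. The mean rose 4.77-fold, from 5.34 ± 0.94 to 7.59 ± 0.80 (log2 difference 2.25, SE 0.48, adjusted p = 0.0040). The pigmented tumors were near background, so the size is limited by it, and without background correction the difference was 1.23 (adjusted p = 0.0091). The other 2 probes rose by 1.58 (SE 0.30, adjusted p = 0.0020) and 1.45 (SE 0.44, adjusted p = 0.025). The first of these, ILMN_1235571, was detected in 1 of 5 pigmented and 5 of 5 MPNST-like tumors. Within chip 1, which held pigmented 2, Ccn1 differed by 1.33, and within chip 2 by 2.87.

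Ccn1 and Ccn2 shared their order only in part. Pigmented 2 and pigmented 4 were the highest pigmented tumors for both genes. Among the MPNST-like tumors, MPNST-like 5 was highest for Ccn1 and close to lowest for Ccn2. The shift of Ccn1 relative to Ccn2 was 0.16 (exact permutation p = 0.79, adjusted 0.79), and over the alternatives it ran from -0.76 to 0.61, so no unequal change of the pair was detected at this number of tumors.

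Ankrd1 encodes a nuclear ankyrin repeat protein, known from stretched muscle and as a YAP target. Its brightest probe was at 4.93, 5.18, 4.39, 4.62 and 4.66 in pigmented 1 to 5 and at 7.53, 8.51, 4.49, 7.05 and 5.0 in MPNST-like 1 to 5. MPNST-like 1, 2 and 4 lay well above all other tumors, while MPNST-like 3 and 5 lay among the pigmented ones. It was detected in 3 of 5 pigmented and 4 of 5 MPNST-like tumors. The groups overlapped, and the difference of 1.76 did not pass (SE 0.67, adjusted p = 0.058). The difference was 2.97 within chip 1, where it passed, and 0.96 within chip 2. The MPNST-like tumors of chip 1, MPNST-like 1 and 2, were among those with high Ankrd1. With chip as a block the difference passed (adjusted p = 0.024). It also passed without MPNST-like 3 (2.27, adjusted p = 0.013), without MPNST-like 5 (2.14, adjusted p = 0.029) and with median scaling (2.04, adjusted p = 0.037). In the other 19 of 24 alternatives it did not pass. MPNST-like 3 and 5 are the tumors of their group that lay among the pigmented ones, so leaving either out raises the difference. The second probe, ILMN_2625451, was detected in 0 of 5 pigmented tumors and in 3 of 5 MPNST-like tumors, the same 3. It was kept only through those 3 tumors, and its difference did not pass (adjusted p = 0.089). MPNST-like 3 and 5 were at 4.22 and 4.25 on this probe, beside 4.22 to 4.54 in the pigmented tumors. With pigmented tumors set at the lowest detected level of their array, the MPNST-like mean was 1.69-fold higher. MPNST-like 3 and 5, also undetected on this probe, entered that mean at their measured levels, so the value is no lower bound.

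Muscle genes were high in 3 tumors, 1 of which also had high Ankrd1. The mean level of 12 skeletal muscle genes was 10.10 in pigmented 4, 10.41 in MPNST-like 2 and 10.60 in MPNST-like 5, and 4.38 to 6.95 in the other tumors. MPNST-like 2 had the highest Ankrd1 of all tumors, at 8.51, together with high muscle genes. The other tumors with high Ankrd1, MPNST-like 1 and 4, were low in muscle genes, at 4.93 and 4.45. Of the 3 tumors high in muscle genes, pigmented 4 and MPNST-like 5 held little Ankrd1. The part of muscle tissue in the Ankrd1 levels was not tested.

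**Figure D3:**
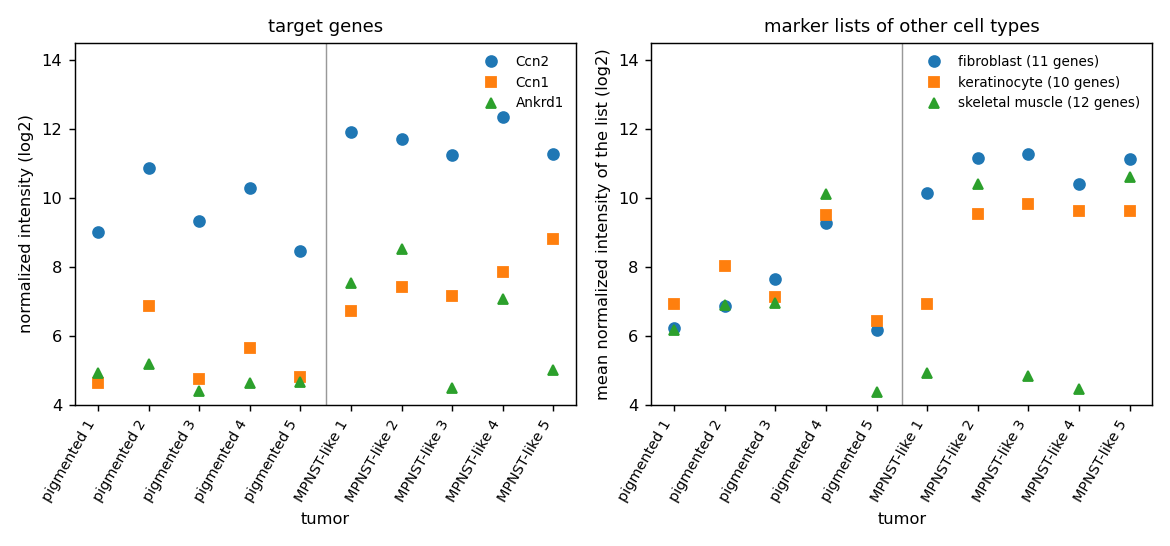
Left, normalized log2 intensity of Ccn2, Ccn1 and Ankrd1 in each tumor. Right, the mean normalized log2 intensity of marker genes of fibroblasts, keratinocytes and skeletal muscle in the same tumors. The fibroblast genes lay from 10.13 to 11.27 in the MPNST-like tumors, where Ccn2 was also high, and of the 3 tumors with high Ankrd1, MPNST-like 2 was also high in muscle genes while MPNST-like 1 and 4 were not.

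Amotl2, a junction protein that binds YAP and holds it back, stayed low in all tumors. It was at 5.07, 4.59, 5.08, 5.42 and 4.73 in pigmented 1 to 5 and at 4.95, 5.25, 4.93, 5.72 and 4.94 in MPNST-like 1 to 5. The groups overlapped, with means of 4.98 ± 0.33 and 5.16 ± 0.34 (log2 difference 0.18, SE 0.21, adjusted p = 0.52). It was detected in 4 of 5 pigmented and 5 of 5 MPNST-like tumors, so that its level near background limits what could be seen.

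Ptpn14, a phosphatase that binds YAP and restrains it, fell. Its brightest probe was at 7.65, 6.92, 7.99, 7.98 and 7.75 in pigmented 1 to 5 and at 6.50, 5.76, 6.39, 6.23 and 6.77 in MPNST-like 1 to 5. All MPNST-like tumors lay below all pigmented tumors, and pigmented 2 was the lowest pigmented one. The mean fell 2.51-fold, from 7.66 ± 0.44 to 6.33 ± 0.37 (log2 difference -1.33, SE 0.24, adjusted p = 0.0017). ILMN_2553305 and ILMN_2621021 gave -1.45 and -1.25 without overlap (adjusted p = 4.3e-04 and 3.5e-04). ILMN_1234728 was at -0.66 and did not pass (adjusted p = 0.073), and ILMN_2583288 was detected on 1 of 10 arrays. The gene's difference was -1.15 within chip 1 and -1.44 within chip 2, and -0.77 (adjusted p = 0.033) with median scaling, under which the median of all genes moved from 0.01 to 0.33.

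Lats2, the kinase gene that is itself a YAP target, could not be measured. Its only probe was detected in 0 of 5 pigmented and 1 of 5 MPNST-like tumors, with raw intensities of 77.2 to 96.2, and it was not tested. The median raw intensity of all probes was 79.4 to 89.0 on the arrays of pigmented tumors and 87.4 to 93.9 on the others.

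The 6 calls on Ccn1, Ccn2, Wwtr1, Tead1, Ptpn14 and Yap1 held when any one of the 10 tumors was left out. Without the 3 tumors high in muscle RNA, 5 of them held, Yap1 being the exception. Within chip 1, with 2 tumors a group, 0 of the 6 passed by limma, with adjusted p from 0.21 to 0.43, and all 6 kept their direction. Within chip 2, with 3 a group, 5 passed, Yap1 again being the exception.

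Other genes of the pathway were read from lists of the same kind, also made with earlier results of these data known. Their counts are therefore given as a description. Among common YAP and TEAD targets, 12 of 16 were measured, 8 rose and 0 fell, beside 18.6% and 20.2% of all genes tested, with a median difference of 1.40 beside 0.01 for all genes. Ccdc80, a matrix protein gene, went from 6.74 ± 1.5 to 9.72 ± 0.97 (log2 difference 2.98, SE 0.69, adjusted p = 0.0060), and a second Ccdc80 probe rose by 0.89. The receptor kinase gene Axl went from 9.0 ± 1.02 to 11.64 ± 0.25 (2.65, SE 0.41, adjusted p = 6.8e-04). Nt5e, which encodes the adenosine-forming enzyme CD73, differed by 2.20 (SE 0.62, adjusted p = 0.017), the growth factor gene Tgfb2 by 1.70 (SE 0.27, adjusted p = 7.7e-04) and the stress gene Gadd45a by 1.55 (SE 0.31, adjusted p = 0.0026). Axl, Tgfb2 and Gadd45a did not overlap between the groups. The 4 that did not pass, named after their values were seen, were Crim1, Myof, Dock5 and Fjx1. Crim1 was at -0.49 (adjusted p = 0.082), Myof at -0.45 (adjusted p = 0.065), Dock5 at 0.19 and Fjx1 at 0.31. With chip as a block Myof passed as lower (adjusted p = 0.041). With median scaling 9 of the 12 rose, by the authors' values 6 did, and 0 fell in either.

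Among other TEAD genes and Vgll cofactors, which bind TEAD factors in place of YAP, 4 of 6 were measured. Vgll3 rose 9.39-fold, from 4.90 ± 0.60 to 8.13 ± 0.30 (log2 difference 3.23, SE 0.28, adjusted p = 2.6e-05), and its level was 7.69 to 8.45 in the MPNST-like tumors and 4.19 to 5.84 in the pigmented ones. It was detected in 4 of 5 pigmented tumors, which limits the size from below. A second Vgll3 probe also rose, by 0.97 only, so the size depends on the probe. Tead4 was at -0.74 (SE 0.27, adjusted p = 0.049), a call lost in 19 of 23 alternatives. Of other CCN genes, Ccn4 rose 5.68-fold (2.50, SE 0.44, adjusted p = 0.0013), while Ccn5 (1.5, adjusted p = 0.24) and Ccn3 (0.36, adjusted p = 0.19) did not pass. A second Ccn4 probe was at 0.35 and did not pass, so the size depends on the probe here too.

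Of 21 listed upstream kinases and scaffolds 16 were measured, 4 rose and 2 fell, with a median difference of -0.10. These counts are near the 18.6% and 20.2% of all genes tested and are no result about the list. Frmd6, a membrane scaffold that acts upstream of the Hippo kinases, rose 4.19-fold, from 8.40 ± 0.60 to 10.46 ± 0.69 without overlap (log2 difference 2.07, SE 0.36, adjusted p = 0.0013). The kinase gene Taok1 rose by 1.04 (SE 0.20, adjusted p = 0.0022) and the scaffold gene Sav1 by 0.61 (SE 0.20, adjusted p = 0.031). The core kinase gene Stk4 fell by 0.81 (SE 0.14, adjusted p = 0.0015) and Taok3 fell by 0.78 (SE 0.20, adjusted p = 0.0098). These smaller changes followed the scaling: median scaling gave 5 of the 16 higher and 0 lower, with Stk4 at -0.35 (adjusted p = 0.13), and by the authors' values 1 rose and 6 fell, with Taok1 at 0.45 (adjusted p = 0.20) and Sav1 at 0.08. Sav1 lost its call in 11 of 24 alternatives, and Taok3 did not pass with the mean of its probes (-0.38, adjusted p = 0.088). Probes of a gene differed elsewhere too, in size for Vgll3, Ccdc80 and Ccn4 as given above. In call, 2 of 4 kept Taok1 probes, 1 of 3 for Taok3, 1 of 2 for Nt5e and 1 of 2 for Ccn4 passed. For Tead4, 0 of 2 passed over all probes.

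**Figure D4:**
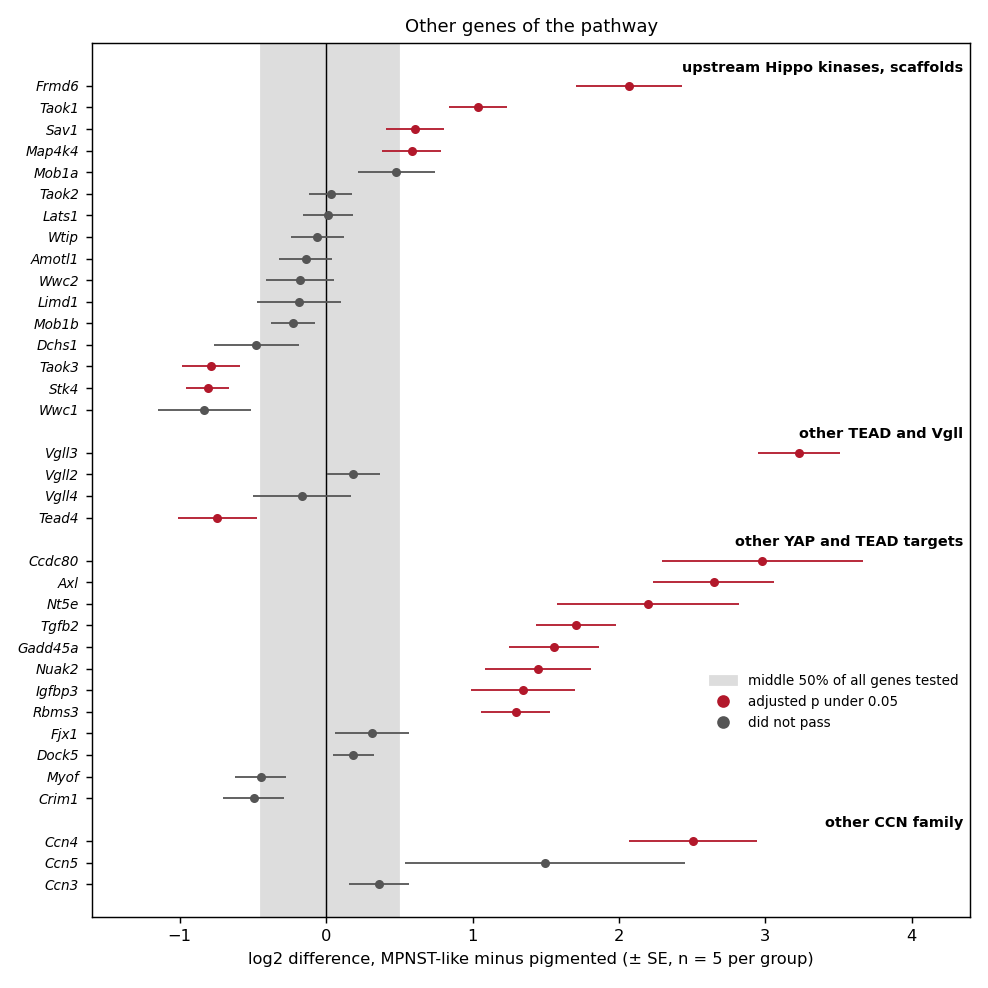
Log2 difference between MPNST-like and pigmented tumors (horizontal axis, ± SE, n = 5 per group) for the 35 other pathway genes measured, by list, with red for an adjusted p under 0.05 and a grey band for the middle 50% of all genes tested. The upstream genes lie on both sides of 0, the 8 called targets lie to the right, and the brightest Vgll3 probe has the largest difference of the 35.

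Markers of several other cell types moved between the groups beside these genes, where 18.6% of all genes tested were higher and 20.2% lower, and their part in the results was not tested. Of 11 fibroblast genes 10 were higher, and their mean level was 6.15 to 9.27 among the pigmented tumors and 10.13 to 11.27 among the others. Of 9 mural cell genes 6 were higher (6.01 to 7.35 against 7.66 to 8.90), of 8 endothelial genes 3 (5.71 to 7.06 against 6.75 to 8.05), of 7 macrophage genes 6 (6.41 to 8.70 against 8.45 to 10.16) and of 6 Schwann cell genes 3 (5.06 to 6.63 against 7.08 to 7.95). Of 10 keratinocyte genes 2 were higher, near the share of all genes, with overlapping levels (6.43 to 9.52 against 6.92 to 9.81). All 9 melanocyte genes were lower (11.74 to 12.12 against 5.17 to 9.38), in groups that the labels already tell apart by pigment. Dct overlapped between the groups, at 14.01 in MPNST-like 5 beside 13.95 to 14.30 in the pigmented tumors. Of the marker genes measured, 1 was detected in 0 of 5 pigmented tumors, the Schwann cell gene Erbb3. The mean level of the 12 other YAP and TEAD targets was 6.05, 6.71, 6.77, 7.01 and 6.39 in pigmented 1 to 5. Fibroblast levels in these tumors were 6.23, 6.86, 7.65, 9.27 and 6.15. In MPNST-like 1 to 5 the targets were at 7.94, 7.78, 7.67, 7.92 and 7.76. The fibroblast levels there were 10.13, 11.14, 11.27, 10.41 and 11.14. Whether these levels go together was not tested. Pigmented 4 had the highest fibroblast level of the pigmented tumors, at 9.27, with Ccn2 at 10.29, and pigmented 2 had higher Ccn2, at 10.88, with a fibroblast level of 6.86. MPNST-like 1, with the lowest fibroblast level of its group and a keratinocyte level of 6.92, had the highest Wwtr1 and Tead1.

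Within the groups, genes were ranked by how closely their levels followed Yap1 or Ccn2 over the 10 tumors once each group's mean was subtracted. For Yap1 the closest were Bmf (Pearson's r = 0.99), Wrn (0.94), Ntn3 (0.94), Fastkd5 (0.93) and Spata2l (0.93). For Ccn2 they were Mob1a (0.97), Gask1b (0.94), Emp1 (0.94), Gtpbp4 (0.94) and Slirp (0.93). Mob1a, a cofactor of the Lats kinases, was at 0.48 between the groups and did not pass (adjusted p = 0.17). These are the highest of 11984 genes over 10 arrays that share their normalization, and they are given as a description.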

How the data were processed

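RNA of 10 tumors was read on single-colour Illumina MouseWG-6 v2.0 arrays from 100 ng per tumor, per the labels. The deposited scanner table holds 45281 probes, each with an average intensity and a detection p-value, per the file headers. No intensity was negative. A second deposited table holds the authors' normalized log2 values by an unstated method, used as an alternative. Taken off the log2 scale, they were a linear function of the intensities on each array, so their direction is known and their centring is not. Their medians, in tumor order, were 4.79, 4.92, 5.0, 4.86 and 4.96 on the pigmented arrays, then 4.79, 4.85, 4.80, 4.80 and 4.82 on the MPNST-like arrays.

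Intensities were corrected with limma 3.58.1 (neqc, offset of 16, quantile normalization) in R 4.3.3. A probe was kept where 3 or more arrays had a detection p-value below 0.05 (22480 probes). Symbols came from the platform annotation: 34885 probes had 1 symbol, 18 several and 10378 none. Groups were compared with lmFit and eBayes, tested on simulated data, with Benjamini-Hochberg adjustment over all genes (or probes). Pairs of genes were compared by two-sided exact permutation. The text names all 10 members and, from each other list, up to 5 called genes with the largest differences. Members and lists were chosen with earlier results of these data known. Alternatives were other background corrections, scalings, filters, variance models, thresholds, the chip, and leaving tumors out. Precision is limited by the number of arrays. Between 17908 and 20120 probes were detected on pigmented arrays, and between 19274 and 21581 on the others. Plots used matplotlib 3.10.9 (Python 3.11.15).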

Additional observations from a re-analysis of the deposited data

Results flagged for a closer look

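Of 64 groups of 5 tumors looked at (the 19 kept probes and the 13 other named pathway genes, in each group), 1 had a tumor far from the rest, where chance gives about 5% of groups. The Wwtr1 probe ILMN_2732997 was at 7.28 in MPNST-like 1 and at 6.05 in the next of the MPNST-like tumors, a gap of 0.77 of the group's range against a critical value of 0.71. The brightest Wwtr1 probe was also highest in that tumor.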

How the results depend on the processing

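Over 24 alternatives no difference of a called gene reversed. Median scaling called 3847 genes higher and 902 lower over all genes, with 1 member and 0 genes of the other lists lower. The authors' values called 1220 higher and 3817 lower, with 9 genes of the other lists higher and 7 lower. Their all-gene medians were 0.33 and -0.22. Chip 1 alone, with 2 tumors a group, called 255 and 135 genes, 1 member higher (Ankrd1) and 0 lower. It also called 1 member probe higher and 0 lower, and 2 genes of the other lists higher and 0 lower. Chip 2 alone left 1 member lower. An adjusted p under 0.01 called 1274 and 1514 genes, with 1 member lower. Without the 3 tumors high in muscle RNA 1 member was lower, and the Wwtr1 shift relative to Yap1 was 1.91 (exact permutation p = 0.029, the smallest that 35 assignments allow, adjusted 0.086). With chip as a block it was 1.82 (exact permutation, adjusted p = 0.050). Leaving out pigmented 2 took the Tead2 shift relative to Tead1 past the threshold, at -1.88.

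With each tumor left out in turn, 1841 to 2375 genes were higher and 2018 to 2620 lower, 4 to 5 members were higher and 2 lower, 12 to 14 genes of the other lists were higher and 2 to 4 lower, and 7 to 10 member probes were higher and 4 to 5 lower. The shifts ran from 1.66 to 1.94 (Wwtr1 and Yap1), -1.88 to -0.92 (Tead2 and Tead1) and -0.25 to 0.43 (Ccn1 and Ccn2). Signals near background limit Ccn1, Ankrd1, Amotl2 and Vgll3 in pigmented tumors, and Lats2 in all. The cause of these changes was not tested. No paired analysis was possible because the replicate numbers are names in accession order and pair no tumors.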
